A study of Mus musculus with 38 samples.

Results

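Golga7b and 4 other genes of protein palmitoylation, Golga7, Zdhhc5, Zdhhc8 and Zdhhc2, were followed in mouse brown adipose tissue. The 5 genes were chosen by their gene names in the scanner files, out of 29411 gene names on the array, and each gene was read from its probe with the highest mean. Golga7b was selected on these data, because its signal was lower on the high fat diet than on the control diet at every time point. Its values on these diets are therefore a description without a test. The question was whether its paralogue and its partner acyltransferases moved too.

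The C57BL/6J mice were weaned, 3 to 4 weeks old, and were divided into groups of 30. The LFC group received a low fat diet with 10% of calories from fat, and the HFC group a high fat diet with added sucrose and 60% of calories from fat. The HF5, HF20 and HF75 groups received the HFC diet together with 5, 20 or 75 µg of Kal-1 (an ethano-botanical formulation), and no group received Kal-1 with the LFC diet. The labels state that 5 mice per group were killed every 3 weeks, and do not say how many of these mice each array represents.

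The LFC and HFC groups held 10 arrays each, 4 of them from the first 2 weeks (days 6, 10 and 14, with Week 0 on the day of the last) and 6 from Week 3 to Week 18. The dose groups held 6 arrays each, from Week 3 to Week 18. With 1 array per group and time point, the time points served as replicates. In fits with the time point as a block, p values measure how the group differences vary between time points. This spread holds any change of those differences with age. The series text speaks of 3 biological replicates, while the labels used here tie 1 array to each group and time point. All values are log2 signals relative to the 75th percentile of the same array, so a negative value lies below that percentile and a step of 1 is a 2-fold step.

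The 38 arrays differed in brightness. Their 75th percentiles ran from 35.1 to 1209 intensity units, and 36.6 to 78.8% of spots were above background. Taken after the arrays were seen, a boundary of 600 units placed 11 arrays in a bright class, namely 4 of 10 in LFC, 2 of 10 in HFC, 0 of 6 in HF5, 4 of 6 in HF20 and 1 of 6 in HF75. The titles of 10 arrays carry a mark, R2 or R3, whose meaning the labels do not give, and which differs between groups within Weeks 3, 6, 9 and 15. It stood on 8 of the 11 bright arrays and on 2 of the 27 others. The labelled tissue held its markers: all 10 brown adipocyte markers, Ucp1 and Cidea among them, were above background on 34 to 38 arrays. The neuron and nerve markers were mixed: Tubb3 and Uchl1 were above background on 38 arrays, Stmn2 on 37 and Syt1 on 10. Dbh and Nefm were so on 9, Elavl4 on 6, Prph on 5, Nefl and Gap43 on 3, Th on 1 and Snap25 on 0.

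Palmitoylation attaches a fatty acid to cysteines of a protein by a thioester bond and thereby anchors the protein to membranes. The transferases of the DHHC family catalyse this step in the membranes of the Golgi, the endosomes and the cell surface, and thioesterases remove the fatty acid again. Golga7 and Golga7b are small related proteins that act as accessory subunits of such transferases, and the Zdhhc5 enzyme, a Golga7b partner, is known in adipocytes for the palmitoylation of the fatty acid transporter Cd36.

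Golga7b (chromosome 19 of GRCm38.p6) was read by 1 probe that is printed in 2 spots of each array. Bases 24 to 53 of its 60 bases are shown because they hold AATAAA, the motif of a polyadenylation signal, in capitals, which starts at base 26 of the probe. The probe was not aligned to a transcript, so its position there was not determined.
Golga7b probe: ccAATAAAaggacttgccagcttgaggctc
The longest run of bases that this probe shared with the Golga7 probe was 5 bases.

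Zdhhc2 (chromosome 8) had 2 probes and Zdhhc8 (chromosome 16) had 3, and these are shown because the probes of each gene did not vary together. Read in the frame of its base 1, the Zdhhc2 probe used here holds the stop codon TAG, in capitals at base 49. It was not aligned to a transcript. Of the other probes the first 30 bases are given.
Zdhhc2, probe used: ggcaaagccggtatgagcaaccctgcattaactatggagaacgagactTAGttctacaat
Zdhhc2, other probe: gtcttgacaaggaacttacatcagaaatgt
Zdhhc8, probe used: gtctgatgtgttagtgctcggctgccactg
Zdhhc8, other probe: gctacttctgggcagcagttatgtttctcc
Zdhhc8, last probe: tagggaaccctctcctgtgcgctatgacaa
Over the 38 arrays the Zdhhc2 probes correlated at r = 0.06, and the 3 pairs of Zdhhc8 probes at -0.27, 0.25 and -0.26. The 2 probes of Zdhhc5 (chromosome 2) correlated at 0.78 over 37 arrays. Golga7 (chromosome 8) had 1 probe.

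Golga7b, an accessory subunit, was dim in every group and was brightest in LFC. In LFC its log2 signal ran from -5.15 to -0.50 with a median of -2.80, and was -2.63 ± 1.50 (SD, n = 10). In HFC it ran from -6.70 to -3.96 with a median of -5.59, and was -5.57 ± 0.98 (SD, n = 10). The LFC values of Day 6 and Day 10 lay within the range of HFC, and the other 8 lay above all HFC values. The probe passed background in 9 of 10 LFC samples but in 2 of 10 of HFC.

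The HFC signal of Golga7b was lower than that of LFC at 10 of 10 time points, which is the pattern the gene was selected on. The log2 differences of HFC from LFC were -1.53 at Day 6, -0.48 at Day 10 and -2.82 at Day 14. The later differences were -3.89 (Week 0), -5.53 (Week 3), -3.20 (Week 6), -3.14 (Week 9), -3.46 (Week 12), -3.77 (Week 15) and -1.65 (Week 18). The smallest difference was thus at Day 10 and the largest at Week 3. The mean difference was -2.95 (SE 0.42, n = 10), and -3.08 over the time points where both arrays were of 1 brightness class.

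In weeks 3 to 18 the LFC and HFC ranges of Golga7b did not overlap. The share of all genes with ranges so apart was not counted. The means were -1.96 and -5.42 (n = 6 each), with a difference of -3.46 (SE 0.51). In this comparison 0.00915% of all 21856 tested genes (2 genes) were called. As Golga7b was selected on these arrays, its place in this share is no test result for it. Here 0 of 6 HFC arrays were above background, so the change is a bound. On the scanner signals Golga7b was at least 3.95-fold lower in HFC. For each HFC array this takes the higher of its own signal and the lowest signal of any spot called above background there. With normexp background correction the difference was -0.53, so the bound holds for the scanner signals only.

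The size of this difference depended on how dim signals were treated. It was -2.95 over all time points as deposited by the scanner software, -1.72 with signals raised to the lowest one above background, and -0.55 with normexp background correction. From the authors' own table it was -2.35, or -2.59 without Week 15. The 2 spots of the probe differed by a median of 0.165 on the log2 scale and by more than 1 on 4 of 38 arrays. The largest gap was in HFC at Week 0, where the spots read -7.90 and -2.74. Spot 1 alone gave a Golga7b difference of -3.25 and spot 2 alone -2.64.

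Brightness moved with Golga7b within LFC: the 4 bright LFC arrays had a mean of -1.16 and the 6 dim ones -3.60, and the correlation with the log2 75th percentile was 0.77 over these 10 arrays. Over all 38 arrays it was 0.25. The part of brightness in the Golga7b level was not tested. As the tissue was measured in bulk, fewer cells of a type and less RNA per cell cannot be told apart for Golga7b or any other gene here.

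**Figure D1:**
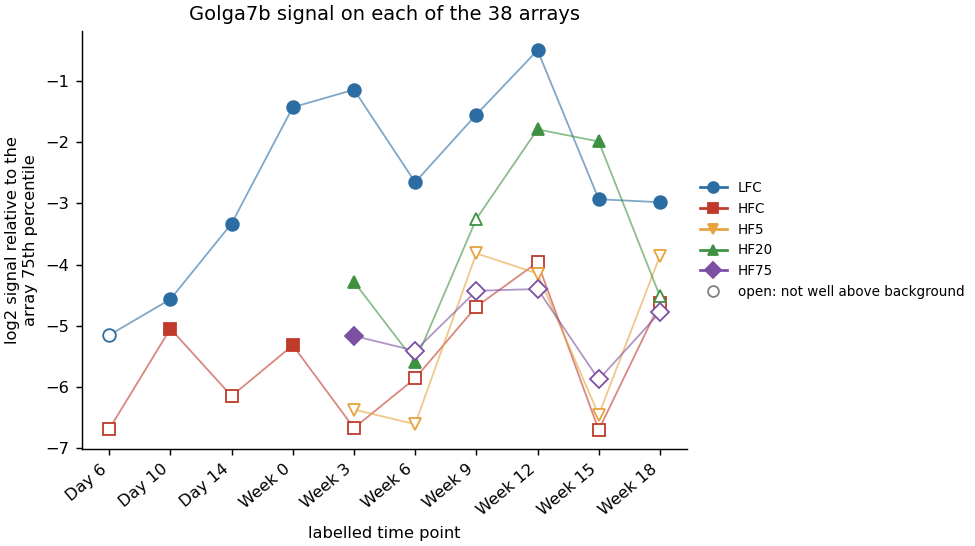
Log2 signal of Golga7b relative to the array 75th percentile (y axis) at each labelled time point (x axis), 1 point per array, coloured by group, with open symbols where the probe was not above background. The LFC points lie above the HFC points at all 10 time points, and the HF20 points lie above the HFC points at the 6 shared ones.

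In the dose groups Golga7b lay between the control groups or near HFC. In HF5 the 6 values were -6.37, -6.61, -3.82, -4.15, -6.46 and -3.86 from Week 3 to Week 18, none of them above background. In HF20 they were -4.28, -5.59, -3.26, -1.79, -1.99 and -4.52, and 4 of 6 were above background. In HF75 they were -5.17, -5.41, -4.43, -4.40, -5.88 and -4.78, of which only that of Week 3 was above background. HF5 and HF75 lay wholly below the LFC range of the same weeks, whereas HF20 overlapped it at Week 12 and Week 15. For how many of all genes this holds was not counted.

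Against HFC, the HF20 signal of Golga7b was higher at 6 of 6 time points, by 1.85 on the log2 scale (SE 0.51), from 0.12 at Week 18 to 4.71 at Week 15. Above background were 0 of 6 HFC arrays and 4 of 6 HF20 arrays, without those of Week 9 and Week 18, so the measured differences bound no fold. Where both arrays were of 1 brightness class, these differences were 2.39 (Week 3), 1.43 (Week 9) and 0.12 (Week 18). With normexp background correction the HF20 difference was -0.20, the opposite sign. The differences of HF5 and HF75 from HFC were 0.21 and 0.41, each with both signs among the time points, between groups in which 0 or 1 of 6 arrays were above background, so no fold is given for them. Against LFC, Golga7b was lower by -3.25 in HF5 and -3.05 in HF75 at 6 of 6 time points, and by -1.61 in HF20 at 5 of 6. In HF5, where 0 of 6 arrays were above background, Golga7b was at least 2.88-fold lower than in LFC on the scanner signals. With normexp its difference of HF5 from LFC was -0.70. These comparisons share their LFC or HFC arrays with the one on which the gene was selected, so no test is given.

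The differences among the doses are taken between dose arrays, on which Golga7b was not selected, but their errors come from a fit that also held the LFC and HFC arrays of these weeks. In that fit the measured signal of Golga7b was lower in HF75 than in HF20 by -1.44 (SE 0.51, limma adjusted p = 0.0422), at 5 of 6 time points. Fitted on the 18 dose arrays alone the same difference did not pass (adjusted p = 0.0633). Golga7b was above background on 5 of these 18 arrays, 4 in HF20, 1 in HF75 and 0 in HF5. Of the 16 arrays that counted for it in the filter on dim genes, 9 were LFC and 2 HFC. With signals raised to the lowest one above background the HF75 difference was -0.25 (adjusted p = 0.723). In HF20 against HF5, with 0 HF5 arrays above background, the measured difference was 1.64 (SE 0.51, adjusted p = 0.0669). It was 0.29 with signals so raised, and no fold above 1 could be bounded. The difference of 0.20 in HF75 against HF5 lies between groups with 1 and 0 of 6 arrays above background and is given without a test. The F test over the 3 doses gave 6.17 (adjusted p = 0.0512). As most of these signals were not above background, the p values of Golga7b among the doses are read as a description. Beside these tests stand all genes: 25.6% of the 21856 genes tested were called in HF75 against HF20 and 13.4% in the F test, and 0% in the other 2 pairs, where 36.2% (HF20 against HF5) and 2.32% (HF75 against HF5) had an unadjusted p under 0.05.

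The Golga7b call in HF75 against HF20 was lost with the brightness class as a covariate (-1.02, adjusted p = 0.415, in a range of 0.0167 to 0.723 over 22 alternatives) and with the R2 or R3 mark as one (-1.29, adjusted p = 0.167), and its sign turned with normexp (0.33). It was also lost when any 1 week other than Week 18 was left out, with values of -1.76 to -0.95 over all 6 omissions. At the 3 time points where both arrays were of 1 brightness class the difference was -0.88, -1.17 and -0.27.

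Over days on diet, averaged over LFC and HFC, Golga7b changed by 0.89 per 100 days (SE 0.56), a description, since these are the arrays on which it was selected.

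Genes whose pattern was most like that of Golga7b were ranked by Pearson correlation over the 38 arrays, among 17583 genes above background on at least 19 arrays. The first 4 names were Mod1 (0.82), LOC677317 (0.81), Me1 (0.80) and Gm7049 (0.80), followed by Mosc1 (0.78). Mod1 is an older symbol of Me1, the cytosolic malic enzyme that supplies NADPH for fatty acid synthesis. LOC677317 and Gm7049 are predicted transcripts described as similar to it, and the LOC677317 and Me1 probes have the same sequence, so these 4 names stand for 3 distinct probes of malic enzyme sequence. Over the 18 dose arrays the correlations were 0.79, 0.84, 0.83, 0.74 and 0.81. These arrays are part of the 38 on which the genes were ranked, so the values are no independent check. Golga7b was above background on 4 of them in HF20, 1 in HF75 and 0 in HF5.

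Me1 was at 4.51 ± 1.49 (SD, n = 10) in LFC and 2.38 ± 1.0 (SD, n = 10) in HFC on its own scale. It was at 2.47 ± 0.97 in HF5, 4.19 ± 1.49 in HF20 and 2.08 ± 0.70 in HF75 (SD, n = 6 each). Thus LFC and HF20 had the higher group means of Me1, as of Golga7b. Me1 was picked by its correlation with Golga7b over these arrays, so the shared order is no independent check. Without the 2 arrays farthest from the median the correlation of Me1 with Golga7b was 0.74. The points share their arrays and brightness, and Me1 correlated with the log2 75th percentile at 0.48. Over the 38 arrays, on 22 of which Golga7b was not above background, the other members correlated with it at 0.49 (Zdhhc2), 0.16 (Zdhhc5), -0.14 (Golga7) and -0.40 (Zdhhc8). Over the 10 LFC arrays, where Golga7b was mostly above background, the order was another. Zdhhc2 at 0.89 stood above Mod1 at 0.78 and Me1 at 0.72, with Zdhhc5 at 0.53, Golga7 at -0.26 and Zdhhc8 at -0.79. Within LFC the log2 75th percentile correlated with Golga7b at 0.77 and with this Zdhhc2 probe at 0.68, and its part was not tested. The second Zdhhc2 probe correlated with the first at 0.06 over the 38 arrays.

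**Figure D2:**
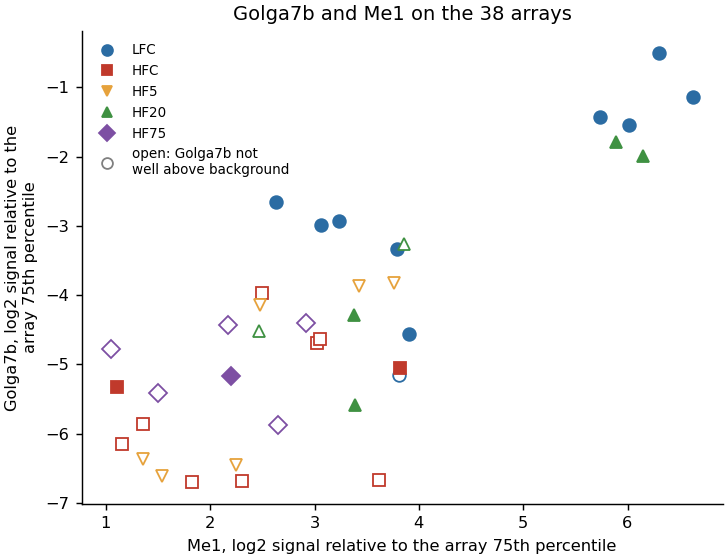
Golga7b against Me1, both as log2 signal relative to the array 75th percentile, 1 point per array and coloured by group, with open symbols where Golga7b was not above background. The 38 points rise together (r = 0.80), the correlation by which Me1 was picked, and the upper right corner holds LFC and HF20 arrays.

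Golga7, the paralogue of Golga7b and the accessory subunit of the Ras palmitoyltransferase, was above background on 38 of 38 arrays and was nearly level between the diets. In LFC its log2 signal ran from 0.72 to 1.34 with a median of 1.01, and was 1.02 ± 0.18 (SD, n = 10). In HFC it ran from 0.36 to 1.27 with a median of 1.1, and was 0.99 ± 0.29 (SD, n = 10). The ranges overlapped, and HFC was lower at 4 time points and higher at 6. The difference of HFC from LFC was -0.03 (95% interval -0.38 to 0.33, limma adjusted p = 0.956; exact sign flips over time points, two-sided p = 0.867). The lowest HFC value, at Week 18, gave the largest difference of -0.85.

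In the dose groups Golga7 had medians of 1.27 in HF5 (1.01 to 1.43), 0.92 in HF20 (0.18 to 1.17) and 1.27 in HF75 (0.76 to 1.74). HF20 was the lowest group mean at 0.81 ± 0.34 (SD, n = 6), and its range overlapped those of the others. HF20 differed from HF5 by -0.44 (SE 0.20, limma adjusted p = 0.125), lower at 6 of 6 time points, and HF75 from HF20 by 0.39 (adjusted p = 0.149). Gm8508, a predicted transcript whose probe shared a run of 9 bases with the Golga7 probe, was at 0.11 in HFC against LFC.

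Zdhhc5, the surface membrane transferase that Golga7b binds, was above background on 38 of 38 arrays. In LFC it ran from 0.99 to 2.34 with a median of 1.74, and was 1.74 ± 0.49 (SD, n = 10). In HFC it ran from 0.88 to 2.22 with a median of 1.66, and was 1.57 ± 0.50 (SD, n = 10). The ranges overlapped, and HFC was lower at 8 of 10 time points. The difference was -0.17 (95% interval -0.50 to 0.16, limma adjusted p = 0.686; exact sign flips, two-sided p = 0.0605). From Week 3 to Week 18 HFC was lower at 6 of 6 time points by -0.33 (95% interval -0.86 to 0.21, adjusted p = 0.513).

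Zdhhc5 at Week 9 in HF20 was flagged as an outlier spot and was left out, so its HF20 values rest on 5 arrays. They had a median of 1.99 (1.34 to 2.48), against 1.58 (-0.05 to 1.98) in HF5 and 1.07 (0.80 to 1.98) in HF75. Zdhhc5 was lower in HF75 than in HF20 by -0.77 (SE 0.26, limma adjusted p = 0.0377), at 5 of 5 time points. The second Zdhhc5 probe gave -0.53 (adjusted p = 0.144).

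The Zdhhc5 call in HF75 against HF20 was lost with the brightness class as a covariate (-0.53, adjusted p = 0.449, in a range of 0.0204 to 0.449 over 21 alternatives), with the R2 or R3 mark as one (-0.87, adjusted p = 0.115) and on the 18 dose arrays alone (-0.76, adjusted p = 0.0928). It was also lost on omission of any 1 of the weeks but Week 18, with values of -0.93 to -0.57 over all 6 omissions. Over the 38 arrays Zdhhc5 correlated with the log2 75th percentile at 0.55, and the part of brightness was not tested. At Week 3 and Week 18, where both arrays were of 1 brightness class, the difference was -0.90 and -0.54.

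Zdhhc8, the closest relative of Zdhhc5, was above background on 38 of 38 arrays. In LFC it ran from -0.71 to 0.95 with a median of 0.15, and was 0.24 ± 0.59 (SD, n = 10). In HFC it ran from -0.66 to 0.92 with a median of 0.13, and was 0.14 ± 0.51 (SD, n = 10). The ranges all but coincided, and HFC was lower at 5 time points and higher at 5. The difference was -0.10 (95% interval -0.59 to 0.40, limma adjusted p = 0.873; exact sign flips, two-sided p = 0.645). The other 2 probes gave -0.18 and 0.50, the latter from a probe above background on 25 arrays.

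Among the doses Zdhhc8 was lowest in HF20, at -0.24 ± 0.50 against 0.31 ± 0.26 in HF5 and 0.33 ± 0.44 in HF75 (SD, n = 6 each), with overlapping ranges. HF75 was above HF20 at 6 of 6 time points, by 0.57 (SE 0.24, limma adjusted p = 0.0804), and HF20 differed from HF5 by -0.55 (adjusted p = 0.109). The other Zdhhc8 probes gave 0.16 and 0.79 in HF75 against HF20. In HF20 against HF5 they gave 0.39, the opposite sign, and -0.48. The 4 bright LFC arrays had a Zdhhc8 mean of -0.31 and the 6 dim ones 0.61.

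Zdhhc2, a transferase of the cell surface and recycling endosomes known from neurons, was above background on 38 of 38 arrays. In LFC it ran from -0.45 to 2.24 with a median of 0.44, and was 0.63 ± 0.86 (SD, n = 10). In HFC it ran from -0.10 to 1.61 with a median of 0.21, and was 0.37 ± 0.50 (SD, n = 10). The HFC values lay within the LFC range. The difference was -0.26 (95% interval -0.80 to 0.27, limma adjusted p = 0.699; exact sign flips, two-sided p = 0.299), and HFC was lower at 7 of 10 time points.

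The Zdhhc2 difference of HFC from LFC was 0.31 at Day 6, 0.73 at Day 10 and 0.50 at Day 14, and was negative at the other 7 time points. From Week 3 to Week 18 it was -0.58 (95% interval -1.34 to 0.18, limma adjusted p = 0.423), between -1.76 at Week 12 and -0.09 at Week 3. The bright LFC arrays had a Zdhhc2 mean of 1.48 and the dim ones 0.06, and over time points of 1 brightness class the difference of HFC from LFC was 0.003. The second Zdhhc2 probe gave 0.03.

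In the dose groups Zdhhc2 was at 0.25 ± 0.42 in HF5, 1.06 ± 0.77 in HF20 and 0.07 ± 0.44 in HF75 (SD, n = 6 each). HF75 was below HF20 at 6 of 6 time points, by -0.98 (SE 0.37, limma adjusted p = 0.0510; 0.0451 on the 18 dose arrays alone, in a range of 0.0291 to 0.622 over 21 alternatives), and HF20 differed from HF5 by 0.81 (adjusted p = 0.119). The ranges of HF20 and HF75 overlapped. The second Zdhhc2 probe gave 0.39 in HF75 against HF20, the opposite sign.

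**Figure D3:**
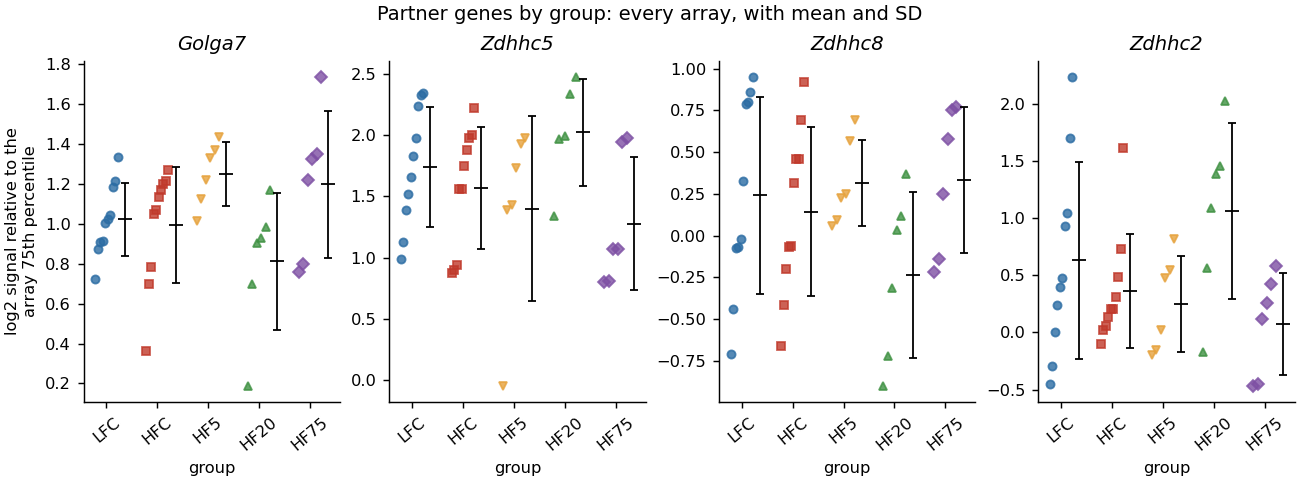
Log2 signal of Golga7, Zdhhc5, Zdhhc8 and Zdhhc2 relative to the array 75th percentile (y axis, a scale for each gene) by group (x axis), 1 point per array, with the mean and SD as a bar. The LFC and HFC points of each gene overlap, and HF20 has the highest mean of Zdhhc5 and Zdhhc2 and the lowest of Golga7 and Zdhhc8.

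Of the 4 partner genes 0 passed the threshold in HFC against LFC over all time points, where 0% of all genes did, and 0 had an unadjusted p under 0.05, against 6.98% of all genes. All 4 fitted differences were below 0, with a median of -0.14 beside 0.06 over all genes tested, but that of Golga7 was above 0 with quantile normalization (0.03), that of Zdhhc2 with the log2 75th percentile as a covariate (0.03) and that of Zdhhc8 with the mean over its probes (0.07). By the methods' t-test 0 of the 21856 genes were called after adjustment and 905 without it, and by limma 1525 without it. The smallest p that exact sign flips over 10 time points allow is 0.00195. In weeks 3 to 18 none of the 4 passed, where 0.00915% of all genes did (2 genes), and none had an unadjusted p under 0.05, where 14.4% of all genes did.

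The product of diet and day, which asks whether the difference between the diets changed with time, gave 0 calls among the 4 partners and 0% among all genes, and 0 unadjusted against 15.3%. The 4 values were -0.57 for Golga7, -0.80 for Zdhhc2, -0.24 for Zdhhc5 and -0.19 for Zdhhc8 per 100 days, with adjusted p of 0.411 or more. The value of Golga7b was -0.30 (SE 0.93), as a description. In the trend over days none of the 4 partners passed, where 1.63% of all genes did, and none had an unadjusted p under 0.05, against 21.3% of all genes, and the fitted changes of the partners were between -0.41 for Zdhhc8 and 0.15 for Zdhhc2 per 100 days.

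**Figure D4:**
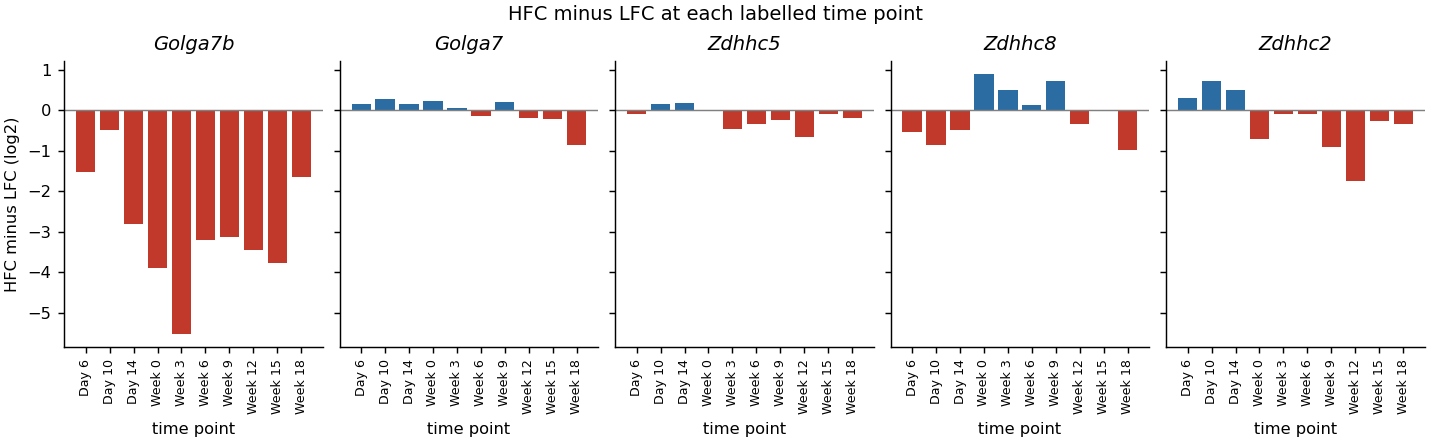
Log2 difference of HFC from LFC (y axis, shared) at each of the 10 labelled time points (x axis) for the 5 genes, 1 bar per pair of arrays. The Golga7b bars reach from -0.48 to -5.53, all below 0, while those of Golga7, Zdhhc5 and Zdhhc8 stay between -0.99 and 0.90 and those of Zdhhc2 between -1.76 and 0.73, with both signs.

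Against HFC, none of the 4 partners passed at any dose, and 0% of all genes did. On the probes used, a single partner had an unadjusted p under 0.05, Zdhhc5 in HF20 at 0.55 (95% interval 0.0026 to 1.09, limma adjusted p = 0.150), higher at 5 of 5 time points. The shares of all genes with such a p were 5.45% for HF5, 33.1% for HF20 and 9.14% for HF75. On the probes used, the other differences of the partners from HFC ran from -0.37 for Zdhhc2 in HF75 to 0.62 for Zdhhc2 in HF20. In HF20 the second Zdhhc5 probe gave 0.27 and the second Zdhhc2 probe -0.14. The other Zdhhc8 probes gave -0.20 and -1.40 there, the latter above background on 25 arrays (limma unadjusted p = 0.0062, adjusted p = 0.123).

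Against LFC, none of the 4 partners passed, where 0.00915% of all genes did in HF5, 0% in HF20 and 0.0275% in HF75. Without adjustment Zdhhc2 was under 0.05 in HF5 (-0.77, adjusted p = 0.376), and Zdhhc2 (-0.94, adjusted p = 0.219) and Zdhhc5 (-0.55, adjusted p = 0.258) in HF75, by limma. The shares of all genes without adjustment were 13.3%, 4.95% and 18.9% in HF5, HF20 and HF75. The second Zdhhc2 probe gave 0.17 in HF75 against LFC. In HF20 the 4 differences from LFC ran from -0.28 for Zdhhc8 to 0.22 for Zdhhc5.

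**Figure D5:**
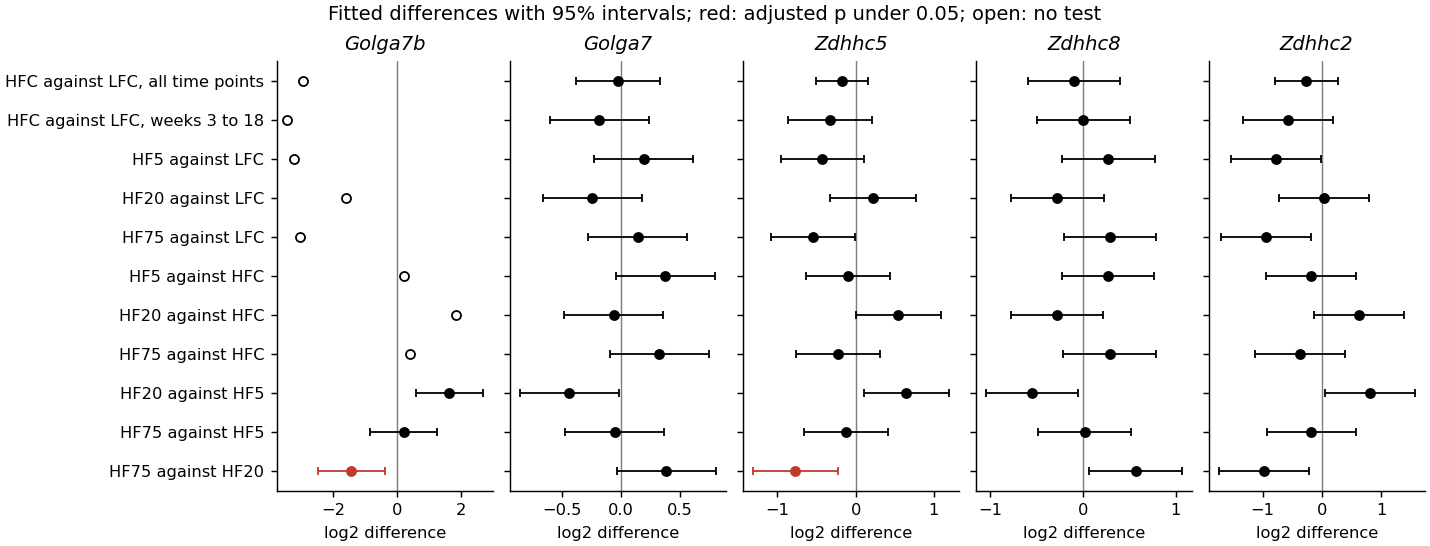
Fitted log2 differences (x axis, a scale for each gene) with 95% intervals in 11 comparisons (rows), with red marking an adjusted p under 0.05 and open circles marking Golga7b values without a test. Red appears only in HF75 against HF20, for Golga7b (-1.44) and Zdhhc5 (-0.77). Both were lost on the 18 dose arrays alone. Golga7b was above background on 4 of 6 HF20 and 1 of 6 HF75 arrays, so its red mark is read as a description.

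Among the comparisons in which a member was tested, HF75 against HF20 was the only one with calls. There Zdhhc5 was called lower, beside the 25.6% of all genes given above. The mostly undetected Golga7b also had an adjusted p under 0.05, which is read as a description and not as a call. Without Week 12 or without Week 15 this comparison held 0 calls among all genes, and without Week 6 it held 4. It also held 0 with the brightness class or the R2 or R3 mark as a covariate, where 4 of 6 HF20 arrays and 1 of 6 HF75 arrays were bright. Other cell markers moved in the same comparison. Of the brown adipocyte markers 5 of 10 were called lower (median -2.10), of the endothelial markers 2 of 5 higher (median 1.81) and of the neuron and nerve markers 2 of 7 higher (median 1.29), beside a median of 0.29 over all genes. Their part in the member values was not tested. Among the other lists 2 of 7 Schwann cell markers were called higher and 1 lower, 1 of 6 macrophage markers lower, and 2 of 6 white adipocyte markers higher and 2 lower, and no lymphocyte, erythroid or skeletal muscle marker was called. Averaged over the list, the neuron and nerve marker level of an array ran from -5.64 to -2.74 in HF20 and from -3.51 to -2.53 in HF75, and that of the brown markers from 1.83 to 3.99 in HF20 and from -2.46 to 1.91 in HF75.

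In HFC against LFC no marker was called. All 7 tested of 12 neuron and nerve markers were higher in HFC (median 0.54), all 8 lymphocyte markers (median 1.12) and all 5 tested erythroid markers (median 0.87), and of the brown adipocyte markers 5 were higher and 5 lower (median -0.01). The medians of the remaining lists were 0.47 for endothelial, 0.29 for white adipocyte, 0.02 for macrophage, -0.03 for skeletal muscle and -0.11 for Schwann cell markers, beside 0.06 over all genes. Averaged over the list, the neuron and nerve marker level of an array ran from -5.97 to -2.74 in LFC and from -5.65 to -1.87 in HFC. The part of these cells in the Golga7b difference was not tested.

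The wider palmitoylation machinery was described from 4 lists: 24 transferases, 9 depalmitoylating enzymes, 3 accessory subunits and 11 palmitoylated substrates. Without the 5 members 34 of these genes were tested. In HFC against LFC none was called, and 12 were higher and 22 lower, with a median of -0.16 beside 0.06 over all genes. With quantile normalization, which moved the median of all genes to -0.07, 13 were higher and 21 lower, with a median of -0.07. All 9 depalmitoylating enzymes, the thioesterases and their relatives, had a difference below 0 (median -0.20), and 7 of 9 did with normexp. The smallest p values were those of 2 transferases, Zdhhc17 at 0.73 (limma adjusted p = 0.644) and Zdhhc7 at -0.58 (adjusted p = 0.644). In weeks 3 to 18 they were those of Zdhhc17 at 0.74 and Zdhhc9, the enzyme that Golga7 serves, at -0.47, with adjusted p of 0.337 and 0.349. With the mean over all its probes Zdhhc9 was at 0.76, the opposite sign.

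In HF75 against HF20, 4 of the 34 genes were called higher and 9 lower, with a median of -0.22 beside 0.29 over all genes, where 25.6% of all genes were called. Of the 9 depalmitoylating enzymes 4 were called lower and none higher. The smallest p values were those of Gnas, the stimulatory G protein subunit downstream of the beta adrenergic receptors, at -1.75 (limma adjusted p = 0.0135), Zdhhc4, the transferase that acts on Cd36 in the Golgi, at -1.1 (adjusted p = 0.0155), and Flot2, a lipid raft scaffold and Zdhhc5 substrate, at -1.32 (adjusted p = 0.0172). Of the 34 genes 5 passed the F test over doses, where 13.4% of all genes did, led by the same 3, with adjusted p of 0.0342, 0.0363 and 0.0392. As for the members, the calls of these 3 genes in HF75 against HF20 were lost with the brightness class or the R2 or R3 mark as a covariate and without Week 6, Week 12 or Week 15, and those in the F test also without Week 3. With the mean over all probes of the gene, Gnas was at 0.17, the opposite sign.

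In the trend over days Gnas changed by -1.09 per 100 days (limma adjusted p = 0.0421) and Zdhhc13, a transferase with ankyrin repeats, by 1.25 (adjusted p = 0.0476), the only 2 of the 34 genes called. With the mean over all probes the Gnas value was 0.31, the opposite sign. The Gnas call was lost without Day 10 or without any 1 of Week 0, 3, 6, 15 and 18 (-1.18 to -0.97 over all omissions). The Zdhhc13 call was lost without any 1 time point but Day 14 (1.16 to 1.38 over all omissions).

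In the other comparisons none of the 34 genes was called, and the 2 with the smallest p are given with their log2 differences. In HF20 against HFC these were Zdhhc4 at 0.77 and Slc2a4, the insulin-regulated glucose transporter, at 2.0, on a probe saturated on 5 arrays. In HF20 against HF5 they were Gnas at 1.31 and Zdhhc4 at 0.79, and in HF20 against LFC Gnas at 0.97 and the thioesterase relative Lyplal1 at 0.91. With the mean over all its probes Gnas was at -0.50 in HF20 against HF5, the opposite sign.

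In HF75 against HFC they were Gnas at -1.06 and Cd36 at 0.77, and against LFC Zdhhc4 at -0.85 and Cd36, the fatty acid transporter, at 0.92. In HF5 against HFC they were Selk, the accessory selenoprotein of Zdhhc6, at 0.59 and the thioesterase Lypla2 at 0.61, and against LFC Nras at 0.72 and Zdhhc17 at 0.74. In HF75 against HF5 they were Fam108a at -0.64 and Hras1 at -0.40, and in the product of diet and day Fam108b at -0.89 and Zdhhc21 at -0.58 per 100 days. Fam108a and Fam108b are older symbols of the depalmitoylating Abhd17 enzymes. Adjusted p of all these values were 0.0669 or more by limma.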

How the data were processed

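Total RNA was labelled with Cy3 and hybridised to a 1-colour mouse array, and the 38 arrays lay on 32 slides scanned on 12 days. Group, time point and dose were taken from the sample labels. The study's methods describe the feeding experiment and report its liver. Weeks are counted there after day 14, and days on diet were set to 14 plus 7 per week.

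The authors deposited scanner output, with 1 background-corrected intensity per spot and no scaling between arrays. The software is Feature Extraction 9.1 per the labels and 10.5.1.1 per the file headers. A deposited table of the authors gives log2 values set against LFC at each time point. It served as an alternative, with and without Week 15, whose columns correlated at -0.01 with the scanner files by probe name, against 0.995 to 1.000 at the other time points. Unmapped sample columns numbered 0.

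Signals were taken as log2 minus the array 75th percentile. Outlier spots were dropped, spots of a probe averaged, and the probe with the highest mean kept per gene. A probe was above background on an array where at least 0.5 of its spots were called so, and genes above background on at least 6 of 38 arrays were tested (21856 genes). The number of arrays and the dimness of a probe limit the precision.

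Comparisons were fitted with limma 3.58.1 in R 4.3.3 with the time point as a block, except in the trend over days, two-sided, with Benjamini-Hochberg adjustment over all tested genes and a threshold of 0.05. The 20 LFC and HFC arrays were used for the diets over all time points, the trend and the product of diet and day, and the 30 arrays of weeks 3 to 18 for the rest. The fits were tested on simulated data.

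The 5 members and the gene lists were chosen with earlier results of these data known. Named genes were the members, the 5 genes most correlated with Golga7b, and, of the palmitoylation lists, the called genes (at most 3 per comparison) or else the 2 with the smallest p. Alternatives covered normalization, background correction, filters, probes, slide and scan day, brightness, array weights, the block, each time point left out, and the deposited table. The 2 spots of Golga7b, single probes, the R2 or R3 mark of the titles as a covariate, and the omission of Week 9 and Week 18 or of the table's Week 15 were added after seeing the data.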

Additional observations from a re-analysis of the deposited data

Results flagged for a closer look

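Of 25 sets of values, 5 genes in 5 groups, 2 held a value far from the others by Dixon's criterion, which chance gives in about 5% of sets. Zdhhc2 in HFC stood at 1.61 at Week 3, a bright array, above the next HFC value of 0.73 at Day 10, and LFC at Week 3 was at 1.70. Zdhhc5 in HF5 stood at -0.0528 at Week 12, below the next HF5 value of 1.39 at Week 3. At Week 12 Zdhhc5 was at 0.81 in HF75, 0.88 in HFC, 1.52 in LFC and 2.34 in HF20.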

How the results depend on the processing

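Of 1499 values of the members under an alternative, 1363 kept their direction and their side of the threshold or moved by less than 1 SD over time points, and 73 changed sign. No alternative called a partner in HFC against LFC, and Golga7b in HFC stayed below LFC in each, while the calls of Golga7b and Zdhhc5 in HF75 against HF20 were lost with either brightness covariate, with the R2 or R3 mark of the titles, on the 18 dose arrays alone, and without any 1 week but Week 18. In the following, values are log2 differences, or F where so marked, for each setting that changed a sign, a call, or a count by over 1.5 times. In the cases without a called gene, limma left 126 to 13252 genes at an unadjusted p under 0.05. The cause was not tested. Signal over background limits Golga7b, which was above background on 16 of 38 arrays.

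With normexp background correction, the values were Golga7b -0.029 in HF20 against HF5, Golga7 0.17 and Golga7b -0.20 in HF20 against HFC, Golga7b -0.17 and Zdhhc5 0.066 in HF5 against HFC, Golga7b -0.70 in HF5 against LFC, Golga7 -0.058 and Golga7b 0.33 and Zdhhc5 -1.14 in HF75 against HF20, Zdhhc8 -0.14 in HF75 against HF5, Golga7 -0.13 and Golga7b -0.40 and Zdhhc4 0.018 in HF75 against LFC, Golga7b -0.55 in HFC against LFC, Golga7b -0.53 and Zdhhc8 -0.018 in HFC against LFC in weeks 3 to 18, Zdhhc2 -0.063 in the trend over days, Lyplal1 -0.089 in HF20 against LFC. The genes called were 0 in HF5 against LFC, 0 in HF75 against HF20, 0 in HF75 against LFC, 0 in HFC against LFC in weeks 3 to 18, 0 in the differences among doses, 550 in the trend over days. With the slide as a random block, the values were Golga7b 1.98 and Zdhhc8 -0.62 in HF20 against HF5, Golga7b -0.023 in HF5 against HFC, Zdhhc2 -0.92 in HF75 against HF20, Zdhhc8 -0.082 in HF75 against HF5, Zdhhc8 -0.046 in HFC against LFC in weeks 3 to 18, Golga7b 9.21 (F) in the differences among doses. Genes past the threshold numbered 6768 in HF20 against HF5, 1 in HF5 against LFC, 0 in HF75 against LFC, 1 in HFC against LFC in weeks 3 to 18, 6462 in the differences among doses. With array weights, the values were Golga7b 1.73 in HF20 against HF5, Zdhhc5 0.038 and Zdhhc8 -0.056 in HF5 against HFC, Golga7b -1.29 and Zdhhc5 -0.61 in HF75 against HF20, Golga7 0.10 in HF75 against HF5, Golga7 0.00042 and Zdhhc2 0.0016 in HFC against LFC, Golga7b 6.32 (F) in the differences among doses, Zdhhc8 0.092 in the product of diet and day, Golga7 0.062 and Zdhhc5 0.0088 in the trend over days. Calls then numbered 1955 in HF20 against HF5, 2 in HF75 against LFC, 1 in HFC against LFC, 1 in HFC against LFC in weeks 3 to 18, 4611 in the differences among doses, 766 in the product of diet and day, 1420 in the trend over days. Without Week 9 and Week 18, the values were Golga7b 2.48 and Zdhhc2 1.44 and Zdhhc8 -0.84 in HF20 against HF5, Golga7b -0.096 in HF5 against HFC, Zdhhc2 -1.32 and Zdhhc5 -0.74 in HF75 against HF20, Golga7 0.088 and Zdhhc2 0.11 and Zdhhc5 0.14 and Zdhhc8 -0.22 in HF75 against HF5, Golga7 0.045 in HFC against LFC, Golga7b 9.28 (F) and Zdhhc2 6.73 (F) and Zdhhc8 5.65 (F) in the differences among doses, Zdhhc8 0.13 in the product of diet and day. The genes called were 7798 in HF20 against HF5, 1 in HF20 against LFC, 0 in HF5 against LFC, 0 in HF75 against LFC, 0 in HFC against LFC in weeks 3 to 18, 7486 in the differences among doses, 2 in the trend over days. With the brightness class as a covariate, the values were Golga7 0.089 in HF20 against HFC, Zdhhc2 -0.15 in HF20 against LFC, Zdhhc2 0.0057 in HF5 against HFC, Golga7b -1.02 and Zdhhc5 -0.53 in HF75 against HF20, Zdhhc8 -0.15 in HFC against LFC in weeks 3 to 18. Genes past the threshold numbered 0 in HF5 against LFC, 0 in HF75 against HF20, 1 in HF75 against HFC, 2 in HF75 against LFC, 0 in HFC against LFC in weeks 3 to 18, 0 in the differences among doses, 669 in the product of diet and day, 1734 in the trend over days. With the log2 75th percentile as a covariate, the values were Golga7 0.0013 in HF20 against HFC, Golga7b -1.39 and Zdhhc5 -0.57 in HF75 against HF20, Zdhhc2 0.035 in HFC against LFC, Zdhhc8 -0.14 in HFC against LFC in weeks 3 to 18. Calls then numbered 0 in HF5 against LFC, 0 in HF75 against HF20, 0 in HF75 against LFC, 0 in HFC against LFC in weeks 3 to 18, 0 in the differences among doses, 1 in the product of diet and day, 2 in the trend over days. With the mean over all probes of a gene, the values were Zdhhc2 -0.088 in HF20 against LFC, Zdhhc8 -0.42 in HF5 against HFC, Zdhhc8 -0.13 in HF5 against LFC, Zdhhc5 -0.46 and Gnas 0.17 in HF75 against HF20, Zdhhc8 -0.12 in HF75 against HFC, Zdhhc8 0.075 in HFC against LFC, Zdhhc8 0.69 and Zdhhc21 0.38 in the product of diet and day, Gnas -0.50 in HF20 against HF5, Zdhhc9 0.76 in HFC against LFC in weeks 3 to 18, Gnas 0.31 in the trend over days. The genes called were 165 in the trend over days. With signals raised to the lowest one well above background, the values were Golga7b -1.52 in HF5 against LFC, Golga7b -0.25 and Zdhhc2 -0.98 in HF75 against HF20, Golga7b -1.48 in HF75 against LFC, Golga7b -1.98 in HFC against LFC in weeks 3 to 18. Genes past the threshold numbered 0 in HF5 against LFC, 0 in HF75 against LFC, 0 in HFC against LFC in weeks 3 to 18, 603 in the trend over days. Without a filter on dim probes, the values were Golga7b -1.44 and Zdhhc5 -0.77 in HF75 against HF20. Calls then numbered 0 in HF5 against LFC, 1 in HFC against LFC in weeks 3 to 18, 0 in the differences among doses, 68 in the trend over days. Without the replicate block (no time point term), the values were Golga7b -1.44 and Zdhhc5 -0.74 in HF75 against HF20. The genes called were 0 in HF5 against LFC, 2 in HF75 against LFC, 0 in HFC against LFC in weeks 3 to 18, 1237 in the differences among doses. From spot 1 of the Golga7b probe alone, the value was -1.31 in HF75 against HF20. With genes above background on all arrays of a fit, the values were Zdhhc2 -0.98 and Zdhhc8 0.57 in HF75 against HF20, Zdhhc5 5.54 (F) in the differences among doses. Genes past the threshold numbered 2209 in HF20 against HF5, 0 in HF5 against LFC, 1 in HF75 against HFC, 1 in HF75 against LFC, 0 in HFC against LFC in weeks 3 to 18, 78 in the trend over days. With quantile normalization, the values were Golga7 0.025 in HFC against LFC, Zdhhc8 -0.085 in HFC against LFC in weeks 3 to 18, Golga7b 11.48 (F) in the differences among doses. Calls then numbered 4 in HF5 against LFC, 1 in HF75 against HFC, 4 in HFC against LFC in weeks 3 to 18, 921 in the trend over days. With the deposited table without Week 15, the value was Golga7 0.0044 in HFC against LFC. Over time points where both arrays were of 1 brightness class, the value was Zdhhc2 0.0027 in HFC against LFC. From spot 2 of the Golga7b probe alone, the value was 6.99 (F) in the differences among doses. With the R2 or R3 mark of the titles as a covariate, the values were Golga7 0.075 in HF20 against HFC, Zdhhc2 -0.060 in HF20 against LFC, Golga7b -1.29 and Zdhhc5 -0.87 in HF75 against HF20, Zdhhc8 -0.075 in HFC against LFC in weeks 3 to 18. Calls then numbered 0 in HF75 against HF20, 0 in the differences among doses, 191 in the trend over days. In a fit of the 18 dose arrays alone, the values were Golga7b -1.44 and Zdhhc2 -0.98 and Zdhhc5 -0.76 in HF75 against HF20, and the genes called numbered 3007 in HF20 against HF5. In a fit of the 12 LFC and HFC arrays alone, the genes called numbered 0 in HFC against LFC in weeks 3 to 18. With the scan day as a random block, the genes called numbered 2 in the trend over days.

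Leaving out each time point in turn gave the following ranges. HF20 against HF5 gave 1.07 to 2.10 for Golga7b, -0.68 to -0.40 for Zdhhc8, 0 to 5218 for the number of genes called. HF20 against HFC gave -0.23 to 0.099 for Golga7, 0 to 3592 for the number of genes called. HF20 against LFC gave -0.15 to 0.29 for Zdhhc2. HF5 against HFC gave -0.41 to 0.091 for Zdhhc2, -0.22 to 0.066 for Zdhhc5. HF75 against HF20 gave -1.76 to -0.95 for Golga7b, -1.12 to -0.80 for Zdhhc2, -0.93 to -0.57 for Zdhhc5, 0.45 to 0.66 for Zdhhc8, 0 to 6651 for the number of genes called. HF75 against HF5 gave -0.13 to 0.074 for Golga7, -0.0014 to 0.42 for Golga7b, -0.11 to 0.16 for Zdhhc8. HFC against LFC gave -0.062 to 0.064 for Golga7, -0.21 to 0.0012 for Zdhhc8, 0 to 2 for the number of genes called. HFC against LFC in weeks 3 to 18 gave -0.14 to 0.20 for Zdhhc8, 0 to 2 for the number of genes called. The differences among doses gave 2.99 to 9.30 for Golga7b, 0 to 5392 for the number of genes called. The product of diet and day gave -0.42 to 0.29 for Zdhhc8, 0 to 373 for the number of genes called. The trend over days gave -0.19 to 0.016 for Golga7, -0.037 to 0.51 for Zdhhc2, 7 to 649 for the number of genes called. HF5 against LFC gave 0 to 2 for the number of genes called. HF75 against HFC gave 0 to 1 for the number of genes called. HF75 against LFC gave 0 to 2 for the number of genes called.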
